A study of Mus musculus with 12 samples.

Results

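Inflammasome, pyroptosis and necroptosis genes were examined in mouse lung by their level in every library of a bulk RNA sequencing study of acute lung injury. The set holds 9 genes of the 38349 in the deposited table, chosen by gene symbol as the core machinery of lytic inflammatory cell death. The set was chosen with earlier results of these data known. It consists of the sensors Nlrp3, Aim2 and Nlrc4, the adaptor Pycard, the proteases Casp1 and Casp4, the pore-forming Gsdmd, and the necroptosis genes Ripk3 and Mlkl. Each symbol stood for 1 gene of the table, and all 9 passed the filter on low counts, the lowest count of any of them in any library being 212. Whole lung of wild-type mice was sampled in 4 groups of 3 libraries. The tpMSC group had lung injury and received tpMSC, the MSC group had lung injury and received MSC, the ALI group had lung injury from hypoxia and lipopolysaccharide (LPS, a component of the bacterial outer membrane) with no cell treatment named, and the Control group was labelled normal. What distinguishes tpMSC from MSC, the age and sex of the mice, the dose of LPS, and the time of treatment and sampling are not given in the labels. The labels do not say that the 3 libraries of a group come from separate animals, so the p-values reflect the spread among these libraries alone, and that spread may be technical.

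Inflammasomes are protein platforms that form in the cytosol when a sensor meets a microbial product or a sign of cell damage. NLRP3 responds to many forms of membrane and ion disturbance, AIM2 to double-stranded DNA, and NLRC4 to bacterial flagellin and secretion system proteins presented by NAIP proteins. The adaptor ASC, made by Pycard, links sensors to caspase-1, which cuts pro-interleukin-1β and pro-interleukin-18 into their secreted forms. Mouse caspase-11, the product of Casp4, binds LPS in the cytosol directly, and both caspases cut gasdermin D, whose released fragment makes pores in the plasma membrane, a death called pyroptosis. Necroptosis is a separate lytic death in which the kinase RIPK3 phosphorylates MLKL. Sensors and the adaptor act by ligand binding and assembly, and gasdermin D and MLKL act once cut or phosphorylated, so transcript levels measure the supply of the machinery and not its activation.

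Total counts per library ran from 53083002 to 70209229, which left 22915 genes to test after the filter. Levels are given in FPKM, read fragments scaled to transcript length and to library depth. The length used for each gene is not given, and comparisons of level between genes depend on it. For Pycard the counts and FPKM imply about 4196 bases, more than its 3800 annotated exon bases. Differences are log2 fold changes from the edgeR quasi-likelihood fit to counts, and the calling threshold was 0.05 for the adjusted p (Benjamini-Hochberg, over all genes tested). The 9 lung epithelial markers were detected in every library. In bulk tissue, fewer cells of a type and less RNA per cell cannot be told apart. The summed level of 12 neutrophil markers was 475 to 626 FPKM in tpMSC, 485 to 1006 in MSC, 3834 to 4339 in ALI and 150 to 242 in Control, with none of the markers at 0. All 12 rose in ALI against Control, 11 fell in MSC against ALI, and 12 fell in tpMSC against ALI. The summed level of 10 monocyte and interstitial macrophage markers was 3618 to 4557 FPKM in tpMSC, 4757 to 5590 in MSC, 4363 to 5455 in ALI and 3488 to 3762 in Control. Most of that sum was Lyz2, which averaged 3899 FPKM in tpMSC, 4659 in MSC, 4078 in ALI and 3536 in Control. Of these 10 markers, 8 rose in ALI against Control (median log2 2.03), 2 fell in MSC against ALI and 7 fell in tpMSC against ALI, and their part in the member results was not tested. Some libraries stood apart from their group. The tpMSC 3 library was the highest tpMSC library for 9 of 9 members, and the MSC 2 library was the highest MSC library for 7 of 9. Where leaving out either library changed a member's call or moved its called fold by over 1.5 times, the adjusted p or the fold without it is given, alone or within a range.

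Most of the machinery was higher in injured lung. In ALI against Control, 8 of 9 members rose and none fell by edgeR (8 by DESeq2 and 8 by limma), where 20.2% of all genes tested were called higher and 39.8% were called in either direction. The groups did not overlap for 9 of 9 members, against 55.6% of all genes. The median log2 fold change of the members was 0.90, and that of all genes was -0.02. The rises were uneven, from 1.29-fold for Gsdmd, which makes the pore, to 4.24-fold for Casp4 and 32.6-fold for Nlrp3.

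**Figure D1:**
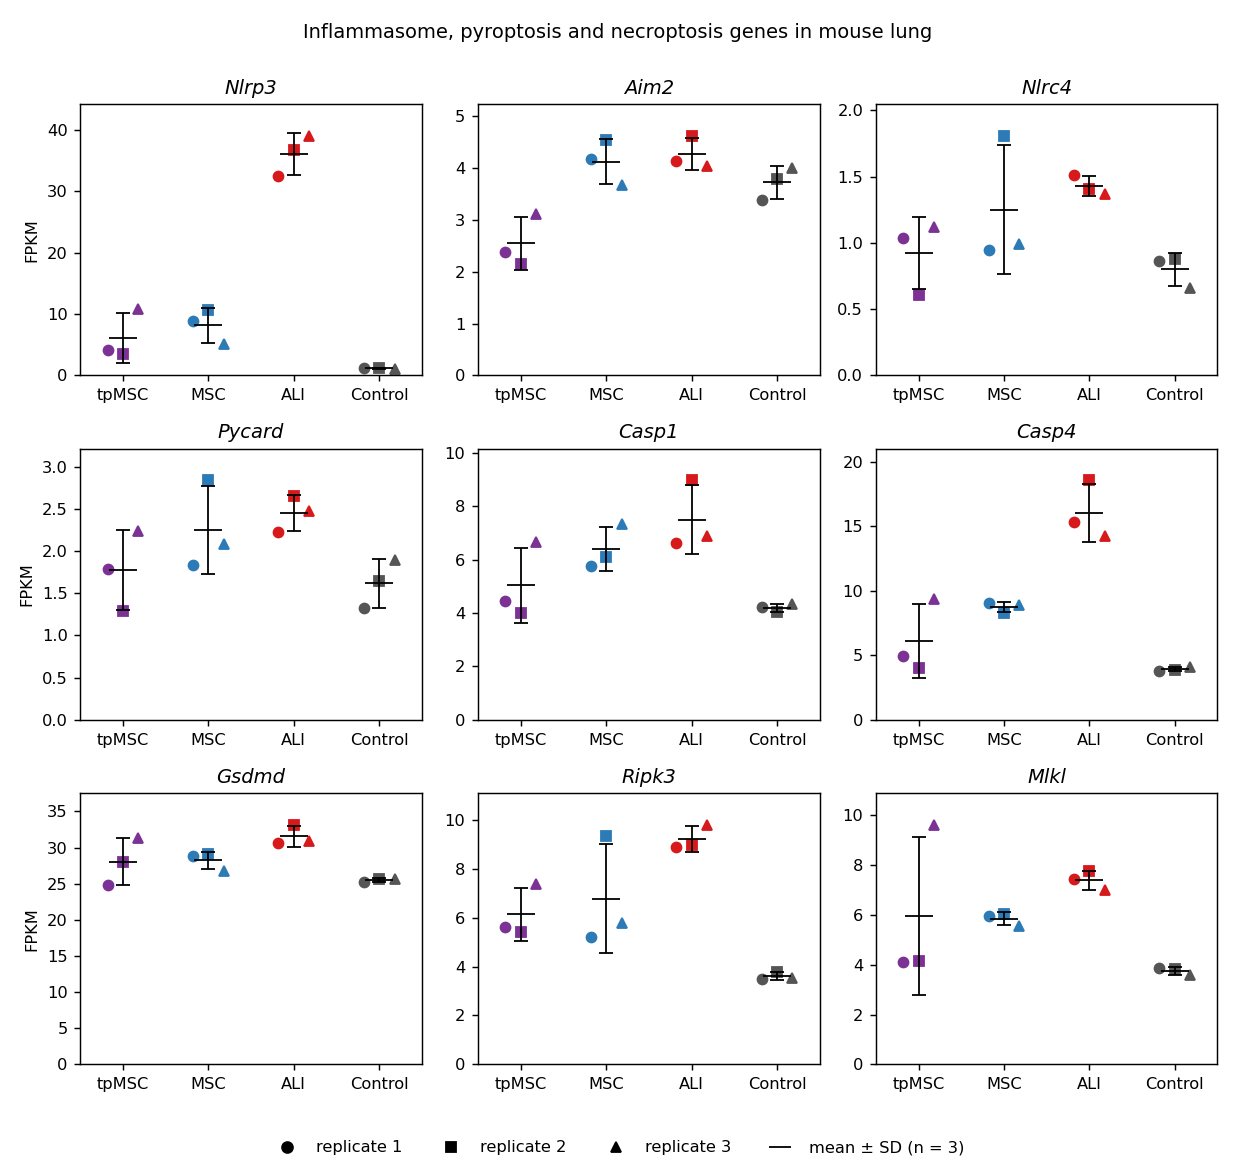
Level of each of the 9 genes in FPKM (vertical axis, linear and starting at 0, scaled per panel) in the tpMSC, MSC, ALI and Control groups, with a point per library shaped by replicate number and bars for the mean ± SD (n = 3). Nlrp3 lay at 32.4 to 39.0 FPKM in ALI and at 1.04 to 1.23 in Control, and the tpMSC 3 library stood above the other tpMSC libraries in all 9 panels.

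Among the sensors, Nlrp3 (ENSMUSG00000032691, GRCm38 chromosome 11, 59541568 to 59566956, plus strand) had 32.4, 36.7 and 39.0 FPKM in ALI libraries 1, 2 and 3, against 1.17, 1.23 and 1.04 FPKM in Control libraries. Every ALI library was far above every Control library. Nlrp3 rose 32.6-fold in ALI (log2 fold change 5.03 ± 0.44 SE, n = 3 each, edgeR adjusted p = 7.69e-06). Nlrc4 (ENSMUSG00000039193, chromosome 17, 74425438 to 74459142, minus strand) had 1.51, 1.41 and 1.37 FPKM in ALI, against 0.86, 0.88 and 0.66 in Control. Both groups were low and did not overlap, and Nlrc4 rose 1.87-fold (log2 0.90 ± 0.27 SE, edgeR adjusted p = 0.0206). That call was lost without Control 3 (adjusted p = 0.0808) or without ALI 1 (adjusted p = 0.0585), within a range of 0.00169 to 0.0808 over 20 alternatives. Aim2 (ENSMUSG00000037860, chromosome 1, 173350879 to 173466040, plus strand) had 4.14, 4.62 and 4.04 FPKM in ALI, against 3.38, 3.78 and 3.99 in Control. Its lowest ALI library lay just above its highest Control library, and the difference did not pass the test (log2 0.26 ± 0.14 SE, 95% interval -0.05 to 0.57, edgeR adjusted p = 0.175).

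The adaptor and the proteases also rose. Pycard (ENSMUSG00000030793, chromosome 7, 127989708 to 127993867, minus strand) had 2.23, 2.65 and 2.48 FPKM in ALI, against 1.32, 1.64 and 1.89 in Control, and rose 1.58-fold (log2 0.66 ± 0.22 SE, edgeR adjusted p = 0.032). This call was the least stable of the 8: it was lost without Control 1, Control 2, ALI 2 or ALI 3 (adjusted p 0.0761 to 0.124) and with no filter on low counts (0.0506), the lowest over 20 alternatives being 0.00728. Of the 3800 exon bases of Pycard, 485 are shared with Gm45205 on the opposite strand, which was listed at 0.06 to 0.21 FPKM over the 12 libraries. Casp1, the protease that matures interleukin-1β (ENSMUSG00000025888, chromosome 9, 5298517 to 5307265, plus strand), had 6.62, 8.97 and 6.87 FPKM in ALI, against 4.24, 4.02 and 4.32 in Control. The ALI libraries were all above the Control libraries, with ALI 2 the highest, and Casp1 rose 1.86-fold (log2 0.90 ± 0.19 SE, edgeR adjusted p = 0.00258). Casp4, the LPS receptor (ENSMUSG00000033538, chromosome 9, 5308828 to 5336783, plus strand), lies next to Casp1 on the same strand. It had 15.3, 18.6 and 14.2 FPKM in ALI, against 3.82, 3.90 and 4.11 in Control. The groups were well separated, and Casp4 rose 4.24-fold (log2 2.08 ± 0.25 SE, edgeR adjusted p = 5.83e-05).

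The executioners differed in scale. Gsdmd, the pore former (ENSMUSG00000022575, chromosome 15, 75862327 to 75867408, plus strand), had 30.6, 33.2 and 30.9 FPKM in ALI, against 25.2, 25.7 and 25.6 in Control. It was already abundant in Control lung and rose 1.29-fold (log2 0.37 ± 0.08 SE, edgeR adjusted p = 0.00457). Ripk3, the necroptosis kinase (ENSMUSG00000022221, chromosome 14, 55784995 to 55788865, minus strand), had 8.87, 8.96 and 9.80 FPKM in ALI, against 3.51, 3.78 and 3.54 in Control. It rose 2.66-fold with little spread in either group (log2 1.41 ± 0.20 SE, edgeR adjusted p = 0.000194). Mlkl, its substrate (ENSMUSG00000012519, chromosome 8, 111311797 to 111338177, minus strand), had 7.42, 7.75 and 6.99 FPKM in ALI, against 3.87, 3.84 and 3.58 in Control, and rose 2.04-fold (log2 1.03 ± 0.27 SE, edgeR adjusted p = 0.00907). The part of neutrophil markers in these rises was not tested.

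The sequence just upstream of the transcription start is shown for Nlrp3 and Casp4, which had the 2 largest rises among the members, and for Casp1, the neighbour of Casp4. NF-kB, a factor switched on by LPS signalling, is known to drive Nlrp3 transcription. The windows hold up to 250 bases before the start with annotated exon bases left out, on the plus strand of GRCm38.p6 from RefSeq: chr11:59541319-59541567 for Nlrp3, chr9:5308599-5308827 for Casp4 and chr9:5298267-5298516 for Casp1. Capitals mark NF-kB matches in Nlrp3 and Casp4 and the reverse complement of the ETS core GAGGAA in Casp1.
Nlrp3: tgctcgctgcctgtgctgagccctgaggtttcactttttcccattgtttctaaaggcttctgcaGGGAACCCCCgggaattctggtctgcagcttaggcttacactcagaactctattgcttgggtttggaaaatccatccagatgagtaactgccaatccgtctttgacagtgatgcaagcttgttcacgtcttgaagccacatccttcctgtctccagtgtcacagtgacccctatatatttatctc
Casp4: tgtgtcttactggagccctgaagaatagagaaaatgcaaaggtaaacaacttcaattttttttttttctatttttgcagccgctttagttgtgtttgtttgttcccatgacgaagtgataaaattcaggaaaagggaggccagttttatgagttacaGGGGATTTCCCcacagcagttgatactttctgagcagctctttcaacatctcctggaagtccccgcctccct
Casp1: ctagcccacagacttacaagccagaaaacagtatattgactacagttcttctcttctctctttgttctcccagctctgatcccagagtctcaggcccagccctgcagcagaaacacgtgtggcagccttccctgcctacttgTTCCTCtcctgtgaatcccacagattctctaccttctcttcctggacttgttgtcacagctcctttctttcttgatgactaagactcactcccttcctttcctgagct
Windows were present for 8 of the 9 members, Gsdmd being the other, and both strands were searched. The NF-kB motif matched in 2 of 8 members, against 3.9% of 32817 windows of mouse genes. Those 32817 windows were counted at the full 250 bases with exon bases kept, for every distinct window listed. Each member had only the window of its outermost start, with exon bases left out, so the shares are on unlike windows. In Nlrp3 the match lay 186 to 177 bases before the RefSeq start. In Casp4 a pair of overlapping matches lay 93 to 84 and 92 to 83 bases before the RefSeq start. The printed Nlrp3 and Casp4 windows end short of that start, where annotated exon bases were left out. The ETS core GAGGAA matched in 3 of 8 (Aim2, Pycard and Casp1), against 23.3% of all windows. The interferon-stimulated response element, the STAT element TTCNNNGAA and the AP-1 element TGANTCA matched in 0 of 8 members, against 2.97%, 7.01% and 6.75% of all windows. A match here describes the letters of the window and is not a measurement of binding.

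Nlrp3 and Casp4, the members with the 2 largest rises in ALI, were lower in MSC-treated lungs. In MSC against ALI, 2 of 9 members fell and none rose by edgeR (2 by DESeq2 and 2 by limma), where 5.21% of all genes tested were called lower and 10.2% in either direction. The groups did not overlap for 4 of 9 members, against 26.9% of all genes. MSC against ALI and ALI against Control share the ALI libraries. Nlrp3 had 8.90, 10.6 and 5.07 FPKM in MSC libraries 1, 2 and 3, against 32.4, 36.7 and 39.0 in ALI. The highest MSC library was under a level of 11 FPKM and the lowest ALI library above 32, and Nlrp3 fell to a fold of 0.219 (log2 -2.19 ± 0.38 SE, edgeR adjusted p = 0.00478). Casp4 had 9.04, 8.27 and 8.90 FPKM in MSC, against 15.3, 18.6 and 14.2 in ALI. The MSC libraries were close together and all under the ALI libraries (log2 -0.93 ± 0.24 SE, edgeR adjusted p = 0.0322). The Casp4 call was lost without Control 2, without any single ALI library or without any single MSC library (adjusted p 0.0502 to 0.101), and with no filter (0.0549), while the lowest over 20 alternatives was 0.000405. Without Control 2, any single ALI library, MSC 1 or MSC 3 the count of members that fell was 1.

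The other 7 members did not pass the test in MSC against ALI, with log2 fold changes of -0.49 to -0.10. Gsdmd had 28.8, 29.1 and 26.8 FPKM in MSC, against 30.6, 33.2 and 30.9 in ALI, so the groups did not overlap (log2 -0.21 ± 0.08 SE, edgeR adjusted p = 0.146). Mlkl had 5.97, 6.02 and 5.57 FPKM in MSC, against 7.42, 7.75 and 6.99 in ALI, also without overlap (log2 -0.38 ± 0.26 SE, edgeR adjusted p = 0.419). The gene's spread, which the fit shares over all groups, includes tpMSC 3. Without tpMSC 3 the Mlkl difference was called (log2 -0.38 ± 0.09 SE, adjusted p = 0.0193, the range over 20 alternatives being 0.0193 to 0.592). Ripk3 had 5.19, 9.33 and 5.79 FPKM in MSC, against 8.87, 8.96 and 9.80 in ALI. The MSC 2 library lay among the ALI libraries and the other MSC libraries under them (log2 -0.49 ± 0.20 SE, edgeR adjusted p = 0.144). Without MSC 2 the Ripk3 difference was called (log2 -0.79 ± 0.14 SE, adjusted p = 0.00548, the range over 20 alternatives reaching 0.426). MSC 2 was also the highest MSC library for Nlrc4 (1.81 FPKM, against 0.95 and 0.99 in MSC 1 and 3) and Pycard (2.84, against 1.83 and 2.08). Its alveolar macrophage marker sum was 802 FPKM, against 323 in MSC 1 and 66.2 in MSC 3. Its monocyte and interstitial macrophage marker sum, mostly Lyz2, was 5590 FPKM, against 4757 in MSC 1 and 4956 in MSC 3. Every marker of the latter list but Ly6c2, C1qa and C1qb was highest in MSC 2 among the MSC libraries. The part of these markers was not tested.

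**Figure D2:**
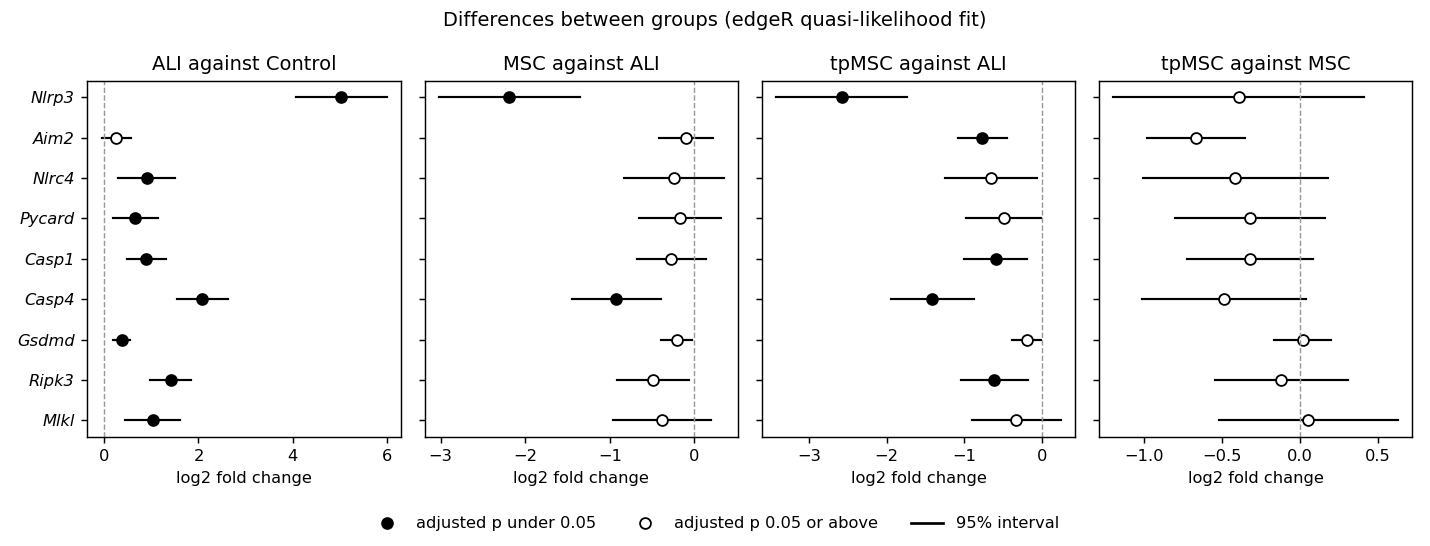
Log2 fold change (horizontal axis) of each gene with its 95% interval in ALI against Control, MSC against ALI, tpMSC against ALI and tpMSC against MSC, from the edgeR fit over 12 libraries; filled points had an adjusted p under 0.05. Filled points number 8, 2, 5 and 0 in these panels.

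Nlrp3, Aim2, Casp1, Casp4 and Ripk3 were lower in tpMSC lungs than in ALI, while Nlrc4, Pycard, Gsdmd and Mlkl were not called. In tpMSC against ALI, 5 of 9 members fell and none rose by edgeR (5 by DESeq2 and 5 by limma), where 11.5% of all genes tested were called lower and 23.1% in either direction. The groups did not overlap for 5 of 9, against 39.5% of all genes, and the median log2 fold change was -0.61. This comparison shares the ALI libraries with those above. Nlrp3 had 4.10, 3.48 and 10.8 FPKM in tpMSC libraries 1, 2 and 3, against 32.4, 36.7 and 39.0 in ALI. All tpMSC libraries were far under the ALI libraries, with tpMSC 3 the highest of them (log2 -2.58 ± 0.39 SE, edgeR adjusted p = 0.000798). Without tpMSC 3 the log2 fold change was -3.28 ± 0.27 SE. Casp4 had 4.93, 4.05 and 9.36 FPKM in tpMSC, against 15.3, 18.6 and 14.2 in ALI, again without overlap (log2 -1.41 ± 0.24 SE, edgeR adjusted p = 0.0018). Aim2, the DNA sensor, which had not been called in ALI against Control, had 2.38, 2.14 and 3.11 FPKM in tpMSC, against 4.14, 4.62 and 4.04 in ALI. Every tpMSC library was under every ALI library, and Aim2 fell (log2 -0.77 ± 0.14 SE, edgeR adjusted p = 0.00299).

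Casp1 and Ripk3 fell by smaller margins in tpMSC against ALI. Casp1 had 4.46, 3.99 and 6.64 FPKM in tpMSC, against 6.62, 8.97 and 6.87 in ALI. The tpMSC 3 library lay just above the lowest ALI library, and Casp1 fell (log2 -0.59 ± 0.19 SE, edgeR adjusted p = 0.0388). Ripk3 had 5.61, 5.40 and 7.39 FPKM in tpMSC, against 8.87, 8.96 and 9.80 in ALI, without overlap (log2 -0.61 ± 0.20 SE, edgeR adjusted p = 0.0429). Neither call was robust. The Casp1 call was lost without any single Control library, ALI 2, ALI 3, tpMSC 1 or tpMSC 2 (adjusted p 0.0535 to 0.15), with no filter (0.066) and with only the libraries of the groups compared (0.0809). The Ripk3 call was lost without any single Control or ALI library, tpMSC 1 or tpMSC 2 (0.0607 to 0.152) and with no filter (0.0781). Over 20 alternatives the lowest adjusted p was 0.00274 for Casp1 and 0.0053 for Ripk3. The count of members that fell was 3 without any single Control library, ALI 2, ALI 3, tpMSC 1 or tpMSC 2.

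The count of members that fell in tpMSC depended on the tpMSC 3 library. Without it, 8 of 9 members fell against ALI, while 2795 of all genes were called lower, against 2640 with all libraries. Pycard (log2 -0.70 ± 0.23 SE, adjusted p = 0.0464), Gsdmd (log2 -0.28 ± 0.08 SE, adjusted p = 0.0235) and Mlkl (log2 -0.86 ± 0.10 SE, adjusted p = 0.000193) were then called. With all libraries their adjusted p was 0.133, 0.124 and 0.415, and over 20 alternatives it reached 0.392, 0.426 and 0.821. Nlrc4 was not called without tpMSC 3 (log2 -0.82 ± 0.31 SE, adjusted p = 0.0757), but was without MSC 2 (log2 -0.65 ± 0.21 SE, adjusted p = 0.043, the highest over 20 alternatives being 0.32). Mlkl, the necroptosis effector, showed the split plainly, with 4.12, 4.14 and 9.62 FPKM in tpMSC, against 7.42, 7.75 and 6.99 in ALI. The first 2 tpMSC libraries were near the Control level of 3.58 to 3.87 FPKM, while tpMSC 3 was above every ALI library.

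Gbp2 and Zbp1, interferon-inducible genes of the wider pathway chosen here after their values were seen, were also high in that library. Gbp2, a GTPase that coats bacteria and helps caspase-11 reach LPS, had 48.6, 69.2 and 231.3 FPKM in tpMSC, 114, 89.0 and 91.9 in MSC, 60.8, 123 and 56.7 in ALI, and 22.8, 22.4 and 23.2 in Control. Zbp1, a sensor of Z-form nucleic acid that recruits RIPK3, had 5.19, 7.32 and 28.0 FPKM in tpMSC, 14.6, 10.2 and 12.4 in MSC, 10.3, 17.1 and 10.0 in ALI, and 1.72, 2.31 and 2.25 in Control. For both genes tpMSC 3 was above all other libraries of the study, and ALI 2 was the highest ALI library. Some marker sums also set tpMSC 3 apart from tpMSC 1 and 2. Its sum was 23306 FPKM for lung epithelium, against 33587 and 33024 in tpMSC 1 and 2, and 448 for alveolar macrophages, against 668 and 613. For T and NK cells it was 72.4, against 48.5 and 46.3, and for cardiac muscle 66.7, against 18.2 and 30.9. For neutrophils it was 475, against 508 and 626. Its endothelial sum (586, against 541 and 606) and its monocyte and interstitial macrophage sum (4344, against 4557 and 3618) lay between those of tpMSC 1 and 2. Most of the latter sum was Lyz2. Every marker of that list but Ly6c2 and Lyz2 was highest in tpMSC 3 among the tpMSC libraries, Cd14 being at 102 FPKM, against 52.5 and 45.6. The part of these markers and of the interferon-inducible genes in the member levels was not tested. Gbp2 has close copies in the genome, and how the authors' counting divided reads among them is not given in the sources used here.

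**Figure D3:**
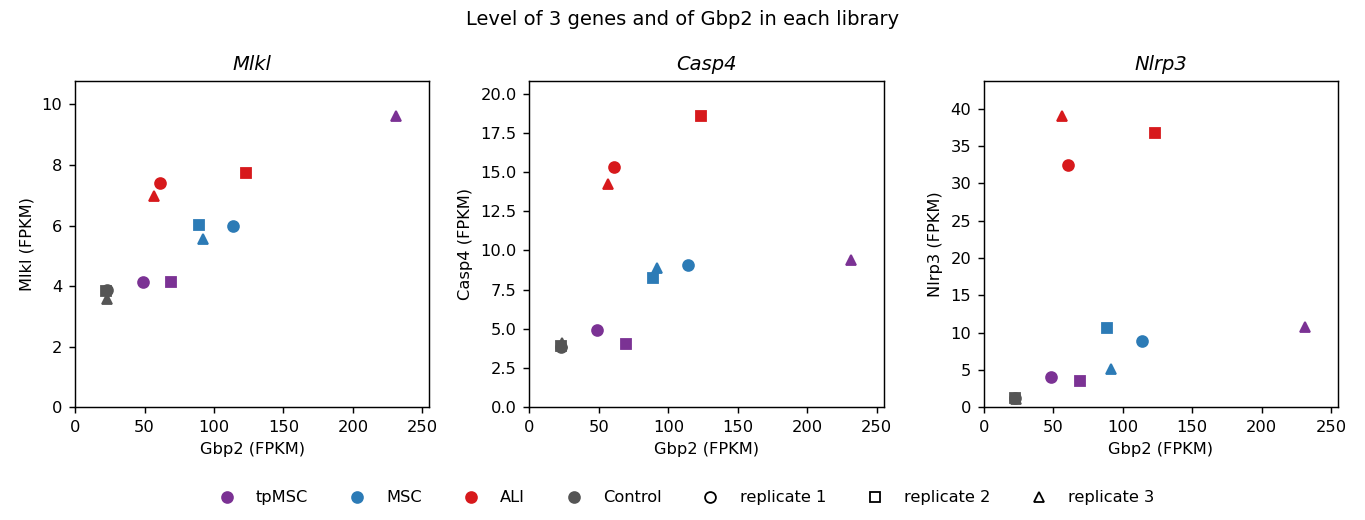
Level of Mlkl, Casp4 and Nlrp3 (vertical axes, FPKM) against that of Gbp2 (horizontal axis, FPKM) in each of the 12 libraries, coloured by group and shaped by replicate number. The tpMSC 3 library lies at 231.3 FPKM of Gbp2, where Mlkl is at 9.62 FPKM, above all other libraries, while its Casp4 (9.36) and Nlrp3 (10.8) stay under every ALI library.

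No member differed between tpMSC and MSC by the threshold. In tpMSC against MSC, 0 of 9 members were called by edgeR and 0 by limma at either pseudocount. By edgeR 0.0305% of all genes tested were called in either direction, 0.0175% higher and 0.0131% lower. DESeq2 called 1 member (Aim2), where it called 641 of the 22915 genes tested. At an unadjusted edgeR p under 0.05 there was 1 member (Aim2), and the share of all genes at that p was not counted. Aim2 had 2.38, 2.14 and 3.11 FPKM in tpMSC, against 4.16, 4.54 and 3.66 in MSC. It was the 1 member of 9 whose groups did not overlap, against 13.3% of all genes (log2 -0.67 ± 0.14 SE, edgeR adjusted p = 0.119). The 95% intervals of the difference ran from -1.20 to 0.41 for Nlrp3, -1.01 to 0.04 for Casp4, -0.73 to 0.09 for Casp1, -0.55 to 0.31 for Ripk3, -0.52 to 0.63 for Mlkl and -0.17 to 0.20 for Gsdmd. The interval was widest for Nlrp3 and narrowest for Gsdmd among these. Without tpMSC 3, 386 of all genes were called, 280 of them lower in tpMSC, against 7 with all libraries. Of the members, 3 of 9 were then called lower in tpMSC than in MSC: Aim2 (log2 -0.84 ± 0.13 SE, adjusted p = 0.0131), Casp4 (log2 -0.94 ± 0.12 SE, adjusted p = 0.00553) and Mlkl (log2 -0.48 ± 0.10 SE, adjusted p = 0.0435). Over 20 alternatives the adjusted p ran from 0.002 to 0.535 for Aim2, 0.00553 to 0.848 for Casp4 and 0.0435 to 1.0 for Mlkl, whose direction turned (log2 0.05 with all libraries). Nlrp3 had a log2 of -1.09 ± 0.24 SE without tpMSC 3, against -0.39 ± 0.37 SE with it, and was not called in either (adjusted p = 0.0539 and 0.738).

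In MSC-treated lungs several members were still above Control. In MSC against Control, 4 of 9 members rose and none fell by edgeR, where 10.7% of all genes tested were called higher and 18.7% in either direction. The groups did not overlap for 7 of 9 members, against 37.9% of all genes. Nlrp3 had 8.90, 10.6 and 5.07 FPKM in MSC, against 1.17, 1.23 and 1.04 in Control (log2 2.84 ± 0.40 SE, edgeR adjusted p = 0.000962). Casp4 (log2 1.16 ± 0.24 SE, adjusted p = 0.00739) and Ripk3 (log2 0.92 ± 0.20 SE, adjusted p = 0.00836) also rose. Casp1 rose by a log2 of 0.62 ± 0.19 SE (adjusted p = 0.0383), a call lost without any single Control library, MSC 2 or MSC 3 (0.072 to 0.123) and with no filter (0.0517), the lowest over 20 alternatives being 0.00809. Mlkl was not called with all libraries (log2 0.65 ± 0.27 SE, adjusted p = 0.114) but was without tpMSC 3 (adjusted p = 0.000778) and with only the libraries of the groups compared (0.00876, the range over 20 alternatives reaching 0.232).

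In tpMSC against Control, which shares the Control libraries with the comparison of MSC, 2 of 9 members rose and 1 fell by edgeR, where 9.1% of all genes tested were called higher, 6.79% lower and 15.9% in either direction. The groups did not overlap for 4 of 9 members, against 38.7% of all genes. Nlrp3 had 4.10, 3.48 and 10.8 FPKM in tpMSC, against 1.17, 1.23 and 1.04 in Control. Every tpMSC library was above every Control library (log2 2.45 ± 0.40 SE, edgeR adjusted p = 0.00277). Without tpMSC 3 the log2 was 1.75 ± 0.24 SE (adjusted p = 0.00234). Ripk3 rose by a log2 of 0.80 ± 0.20 SE (adjusted p = 0.0195), a call lost without any single Control library or tpMSC 3 (0.0572 to 0.0758). Aim2 had 2.38, 2.14 and 3.11 FPKM in tpMSC, against 3.38, 3.78 and 3.99 in Control, and fell without overlap (log2 -0.51 ± 0.14 SE, adjusted p = 0.035). The Aim2 call was lost without any single Control library, ALI 1, tpMSC 1 or tpMSC 2 (0.0513 to 0.134), with no filter (0.0628) and with only the libraries of the groups compared (0.0629), the lowest over 20 alternatives being 0.00856. Casp4 was called without tpMSC 2 (log2 0.90, adjusted p = 0.0252), Mlkl without tpMSC 1 (log2 0.91, 0.042) or tpMSC 2 (log2 0.92, 0.0498), and Gsdmd without tpMSC 1 (log2 0.26, 0.0472). Over 20 alternatives the highest adjusted p of these was 0.279, 0.326 and 0.545. DESeq2 called 5 members, adding Casp4 and Mlkl. The count of members called was 1 without any single Control library.

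**Figure D4:**
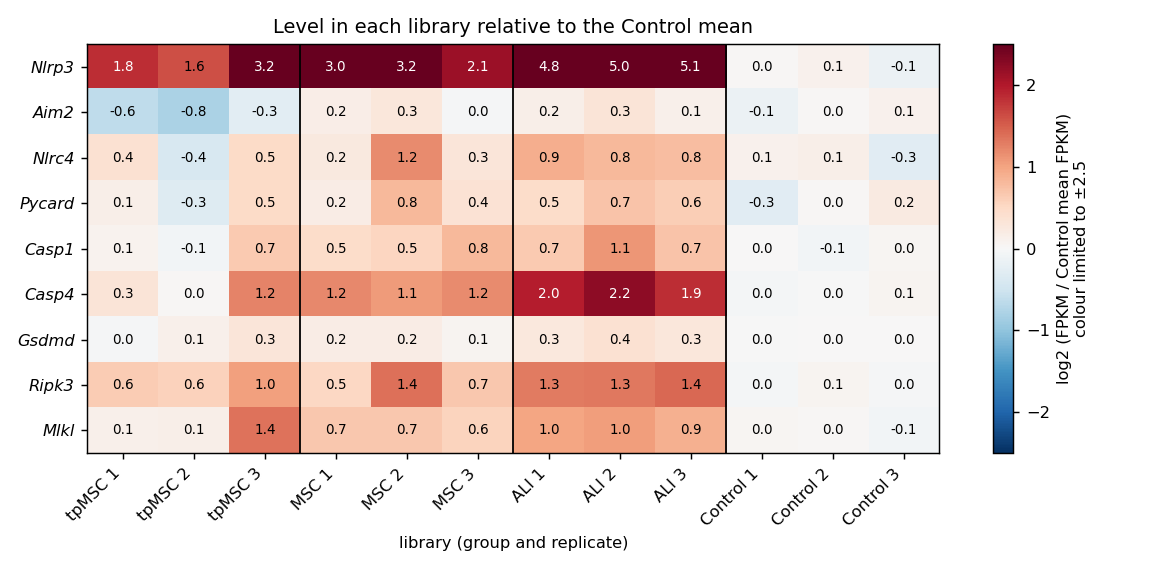
Log2 ratio of each gene's FPKM in each of the 12 libraries (columns) to its mean in Control (printed in the cells), with colour limited to ±2.5. The Nlrp3 row reaches the colour limit in the 3 ALI libraries and in MSC 1, MSC 2 and tpMSC 3, the Aim2 row is below 0 in the 3 tpMSC libraries, and the Gsdmd row is nearly flat.

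Group means of FPKM ran in the same order for 7 of 9 members, lowest in Control, then tpMSC, then MSC, and highest in ALI. For Gsdmd, one of the 7, the edgeR log2 fold change of tpMSC against MSC was 0.02 ± 0.08 SE, which puts tpMSC above MSC. Nlrp3 averaged 6.11 ± 4.04 FPKM in tpMSC, 8.20 ± 2.85 in MSC, 36.1 ± 3.37 in ALI and 1.15 ± 0.10 in Control (SD, n = 3 each). The differences of tpMSC from Control and of MSC from ALI passed the test, and that of tpMSC from MSC did not. Casp4 averaged 6.11 ± 2.85 in tpMSC, 8.74 ± 0.41 in MSC, 16.04 ± 2.25 in ALI and 3.94 ± 0.15 in Control, and of its neighbouring groups only MSC and ALI differed by the test. Ripk3 averaged 6.13 ± 1.09 in tpMSC, 6.77 ± 2.24 in MSC, 9.21 ± 0.51 in ALI and 3.61 ± 0.15 in Control, and of its neighbouring groups only tpMSC and Control differed by the test. For Nlrc4, Pycard, Casp1 and Gsdmd no neighbouring groups in this order did. Mlkl had tpMSC above MSC, again with no neighbouring groups that passed. Aim2 was lowest in tpMSC, where its difference from Control passed, and its MSC and Control or MSC and ALI means did not differ by the test.

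The shares of the members in their summed level varied between groups and were not tested. Summed over the 9 members, the level was 62.6 ± 16.4 FPKM in tpMSC, 71.8 ± 6.28 in MSC, 116 ± 6.84 in ALI and 48.3 ± 0.79 in Control (SD, n = 3 each). Gsdmd made up 45.9% of that sum in tpMSC, 39.4% in MSC, 27.2% in ALI and 52.8% in Control. The share of Nlrp3 was 9.15% in tpMSC, 11.3% in MSC, 31.1% in ALI and 2.38% in Control. In each ALI library Nlrp3 was listed above Gsdmd, and in each of the other 9 libraries Gsdmd was the highest member.

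Ratios of 2 members within a library are not changed by library scaling, but their size depends on the transcript lengths behind the FPKM. The sensor to adaptor ratio Nlrp3/Pycard had a geometric mean of 14.7 in ALI (13.9 to 15.7), against 0.715 in Control (0.55 to 0.886). It was 3.54 in MSC (2.44 to 4.86) and 3.10 in tpMSC (2.29 to 4.80), both under the ALI range. The ratio of the LPS-sensing to the cytokine-processing caspase, Casp4/Casp1, was 2.15 in ALI (2.07 to 2.31), against 0.94 in Control (0.901 to 0.97), and was 1.37 in MSC and 1.17 in tpMSC. The pore to protease ratio Gsdmd/Casp1 was 4.25 in ALI, against 6.08 in Control, and Mlkl/Ripk3 was 0.802 in ALI, against 1.04 in Control. Groups did not overlap in these ALI against Control ratios, each with an exact two-sided permutation p = 0.1, the smallest that 3 against 3 can give, and an adjusted p of 0.178 over 16 such tests. For tpMSC against MSC the exact permutation p was 0.7 for Nlrp3/Pycard and 0.3 for Casp4/Casp1, with overlap in both.

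A wider list of the pathway held 44 further genes, of which 43 were in the table and 40 were tested. Nlrp6, Gsdma and Gsdmc were under the filter, and Nlrp1a was not analysed here. In ALI against Control, 23 of 40 rose and 4 fell, where 20.2% and 19.6% of all genes tested did so, with a median log2 of 0.46. By role, 5 of 8 sensors, 5 of 10 licensing and activation genes, 4 of 7 brakes and membrane repair genes, 3 of 5 other caspases and gasdermins, 2 of 3 cytokine substrates and 4 of 7 necroptosis inputs rose. The 4 that fell were P2rx7, the ATP-gated channel that triggers NLRP3, the protease inhibitor Serpinb1a, the membrane repair gene Chmp3, and Il18. The roles in the list were assigned from general knowledge and do not all act in the same direction. The list was chosen with earlier results of these data known.

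Il1b and Mefv had fold changes as large as that of Nlrp3. Il1b, the cytokine that caspase-1 matures, averaged 358 ± 45.4 FPKM in ALI, against 9.73 ± 2.53 in Control, and rose (SD, n = 3 each; log2 5.26 ± 0.36 SE, edgeR adjusted p = 1.67e-06). Mefv, which encodes the pyrin sensor, averaged 22.7 ± 1.86 FPKM in ALI, against 0.62 ± 0.10 in Control (log2 5.24 ± 0.40 SE). Tnfaip3, which encodes the A20 brake on NF-kB and inflammasome signalling, averaged 41.7 ± 4.81 in ALI, against 3.80 ± 0.25 in Control (log2 3.52 ± 0.31 SE). Nlrp12, a sensor gene, had a log2 of 3.12 ± 0.35 SE at 2.62 ± 0.66 FPKM in ALI, against 0.31 ± 0.14 in Control. Ninj1 encodes the protein that ruptures the plasma membrane in lytic death, downstream of the gasdermin pore. It averaged 48.0 ± 1.72 FPKM in ALI, against 10.8 ± 0.48 in Control (log2 2.22 ± 0.14 SE). Smaller rises were seen for Gsdme, another gasdermin (log2 1.34), Ripk1, the kinase upstream of RIPK3 (0.84), Chmp4b, which repairs gasdermin-damaged membrane (0.63), and Il1a, an alarmin (1.75 ± 0.49 SE, adjusted p = 0.0137). The Il1a call was lost without Control 2 (adjusted p = 0.0507, the lowest over 20 alternatives being 2.27e-05).

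**Figure D5:**
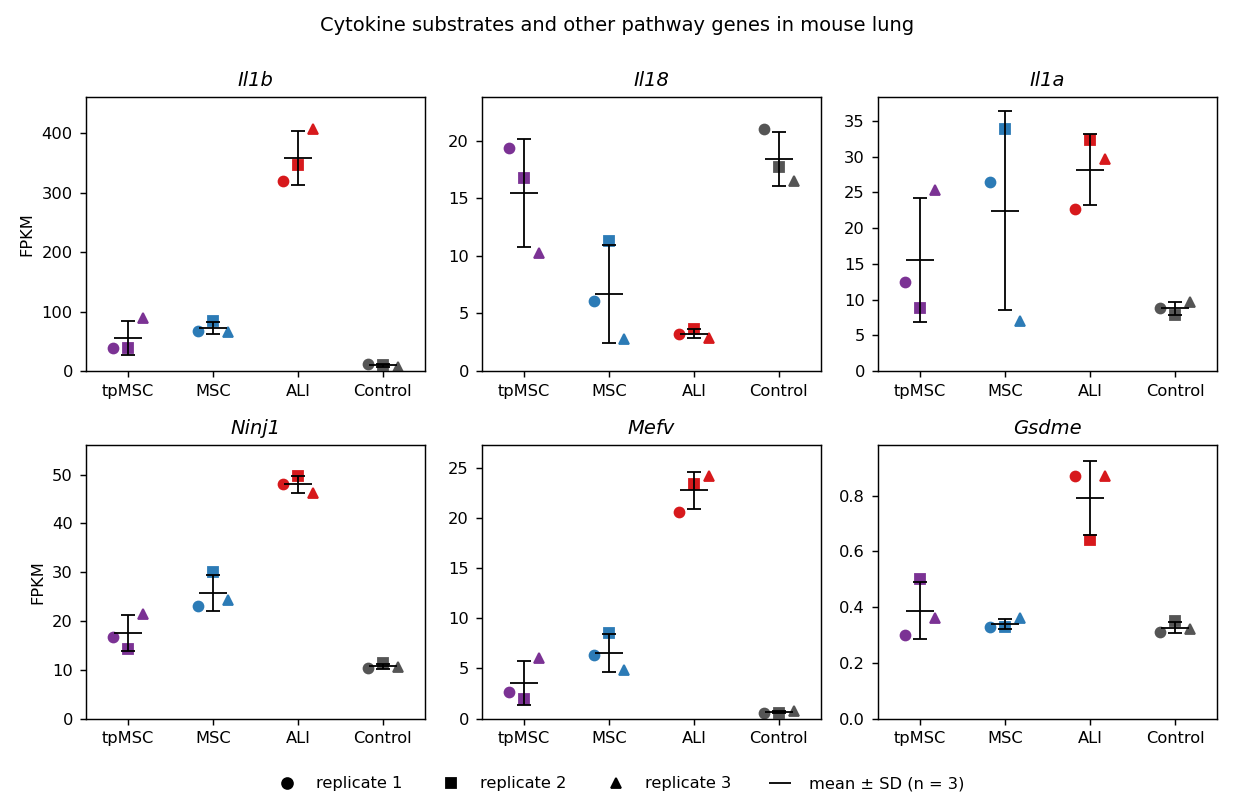
Level in FPKM (vertical axis, linear and starting at 0) of the cytokine genes Il1b, Il18 and Il1a and of Ninj1, Mefv and Gsdme in the tpMSC, MSC, ALI and Control groups, with a point per library and bars for the mean ± SD (n = 3). Il1b is highest in ALI (319 to 408 FPKM), while Il18 is lowest there apart from the MSC 3 library (2.87 to 3.69 FPKM in ALI and 2.75 in MSC 3).

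The cytokine substrates of caspase-1 moved in opposite directions. Il18, which unlike Il1b is made constitutively in many tissues, had 3.22, 3.69 and 2.87 FPKM in ALI, against 21.0, 17.7 and 16.5 in Control. All ALI libraries were far under the Control libraries, and Il18 fell (log2 -2.43 ± 0.40 SE, edgeR adjusted p = 0.000582). In tpMSC it had 19.4, 16.7 and 10.3 FPKM, all above the ALI libraries, and rose against ALI (log2 2.21 ± 0.40 SE, edgeR adjusted p = 0.00244). In MSC it had 6.09, 11.3 and 2.75 FPKM, with MSC 3 under every ALI library, and the difference from ALI was not called (log2 0.98 ± 0.39 SE, edgeR adjusted p = 0.145). It was called without MSC 3 (log2 1.36, adjusted p = 0.0157) and by DESeq2 (0.0497), the highest over 20 alternatives being 0.516. Without MSC 2 its log2 was 0.37 (adjusted p = 0.516). The summed level of 10 alveolar macrophage markers was 668, 613 and 448 FPKM in tpMSC 1, 2 and 3, 323, 802 and 66.2 in MSC 1, 2 and 3, 82.8 to 96.0 in ALI and 367 to 442 in Control. The sum of 9 lung epithelial markers averaged 29972 FPKM in tpMSC, 22209 in MSC, 15054 in ALI and 32615 in Control, and that of 8 endothelial markers 578 FPKM in tpMSC, 494 in MSC, 397 in ALI and 736 in Control. Most of the epithelial sum was Scgb1a1 (7609 FPKM in ALI and 18073 in Control) and Sftpc (4446 in ALI and 11154 in Control). Of the 9 epithelial markers, 5 fell and 2 rose in ALI against Control. The order of the group means of Il18 was that of the epithelial and endothelial sums and not that of the alveolar macrophage sum. Much of the alveolar macrophage sum was Chil3, which averaged 329 FPKM in tpMSC, 245 in MSC, 29.3 in ALI and 117 in Control. Taken singly, the alveolar macrophage markers Siglecf, Ear1, Ear2, Car4 and Pparg had the Il18 order of group means. Marco, Chil3, Fabp4, Plet1 and Mrc1 did not. Within tpMSC, MSC and Control, the libraries ran in the same order for Il18 as for the alveolar macrophage sum. In ALI they did not. The epithelial sum had the library order of Il18 in tpMSC and ALI only, and the endothelial sum in no group. The part of these markers in the Il18 levels was not tested.

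Between MSC and ALI, 1 of the 40 wider genes rose (P2rx7) and 8 fell, where 5.03% and 5.21% of all genes tested did so. Il1b averaged 72.0 ± 10.2 FPKM in MSC, against 358 ± 45.4 in ALI (log2 -2.36 ± 0.31 SE, edgeR adjusted p = 0.00117). Ninj1 (log2 -0.94 ± 0.14 SE), Gsdme (log2 -1.28 ± 0.19 SE) and Nlrp12 (log2 -1.84 ± 0.33 SE) also fell. Il1a had 26.4, 33.9 and 6.96 FPKM in MSC, against 22.6, 32.4 and 29.6 in ALI, and was not called (log2 -0.38 ± 0.47 SE, edgeR adjusted p = 0.685). Between tpMSC and ALI, 1 of the 40 rose (Il18) and 11 fell, where 11.6% and 11.5% of all genes tested did so. Il1b averaged 55.7 ± 29.1 FPKM in tpMSC, against 358 ± 45.4 in ALI (log2 -2.70 ± 0.32 SE, edgeR adjusted p = 0.000193). Ninj1 had 16.8, 14.2 and 21.5 FPKM in tpMSC, against 48.1, 49.7 and 46.3 in ALI (log2 -1.48 ± 0.14 SE, edgeR adjusted p = 6.54e-05). Mefv (log2 -2.69 ± 0.35 SE, and -3.31 without tpMSC 3) and Tnfaip3 (log2 -2.41 ± 0.29 SE) also fell, and Il1a was not called (log2 -0.88 ± 0.48 SE, adjusted p = 0.216).

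Between tpMSC and MSC, 0 of the 40 wider genes were called by edgeR and 0 by limma. DESeq2 called 2 of them (Ninj1 and Il18), where it called 641 of the 22915 genes tested. At an unadjusted edgeR p under 0.05 there were 7, with 6 of them lower in tpMSC. The share of all genes at that p was not counted. The smallest p belonged to Ninj1, at 17.5 ± 3.74 FPKM in tpMSC and 25.8 ± 3.67 in MSC (SD, n = 3 each; log2 -0.53 ± 0.14 SE, edgeR adjusted p = 0.163), and P2rx7 (log2 -0.31) and Il18 (log2 1.23) were also among the 7. Without tpMSC 3 edgeR called 3 of the 40 and 386 of all genes. Ninj1 was among the 3 (log2 -0.72, adjusted p = 0.016, the highest over 20 alternatives being 0.552). Against Control, 13 of 40 rose and 3 fell in tpMSC (9.1% and 6.79% of all genes), and 16 rose and 2 fell in MSC (10.7% and 8.0% of all genes). The tpMSC count of 16 dropped to 10 without Control 1 and 9 without Control 2, and the MSC count of 18 to 11 and 10. Il1b stayed higher than in Control in MSC (log2 2.90 ± 0.32 SE) and in tpMSC (log2 2.56 ± 0.32 SE), as did Mefv (log2 3.39 in MSC and 2.55 in tpMSC, or 1.93 without tpMSC 3) and Ninj1 (log2 1.27 in MSC and 0.74 in tpMSC). Gbp5, a relative of Gbp2 with close copies of its own, had 10.96, 15.98 and 56.04 FPKM in tpMSC and 28.0, 17.6 and 21.2 in MSC, against 2.11, 2.24 and 2.11 in Control. It was higher than in Control in tpMSC (log2 3.72 ± 0.62 SE, adjusted p = 0.00309, and log2 2.68 ± 0.43 SE without tpMSC 3) and in MSC (log2 3.38 ± 0.61 SE, adjusted p = 0.0035). Il18 was lower in MSC than in Control (log2 -1.45 ± 0.39 SE, adjusted p = 0.0235, and log2 -2.06 without MSC 2), a call lost without Control 1, Control 2 or MSC 1 (0.0595 to 0.0764) and with only the libraries of the groups compared (0.0649), the lowest over 20 alternatives being 0.000785. In tpMSC against Control it was not called (log2 -0.22 ± 0.38 SE, 95% interval -1.05 to 0.61, adjusted p = 0.749).

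Log2 CPM was centred on each gene's mean but not scaled, so nearness between genes reflects the size of their changes as well as the pattern. Among 12808 candidates, the genes nearest each member had the smallest root mean square difference of centred log2 CPM over the 12 libraries. For Nlrp3 these were Hcar2 (0.23) and Il1rn (0.24), the gene of the interleukin-1 receptor antagonist. For Casp4 they were Ccdc88b (0.14) and Lair1 (0.17), and for Ripk3 C1rl (0.10) and Glipr2 (0.11). Mlkl was nearest to Parp9 (0.14) and Irf5 (0.15), Casp1 to Rcan1 (0.13) and Smcr8 (0.14), and Gsdmd to the proteasome subunit gene Psma4 (0.06) and Cops4 (0.06). Aim2 was nearest to Lacc1 (0.15) and Cd48 (0.16), Nlrc4 to Gnpda1 (0.16) and Tlr7 (0.16), and Pycard to Rad18 (0.13) and Dera (0.15). Among the members themselves, Pycard and Casp1 were the closest pair (0.22) and Nlrp3 and Aim2 the farthest (1.72). The points share the same 12 libraries and no p is attached to them.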

How the data were processed

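Poly(A)-selected, second-strand-marked RNA libraries from whole mouse lung were sequenced as read pairs, per the labels' protocols. Per the file headers, the authors deposited 1 table with 38349 genes in rows and, for each of the 12 libraries, raw counts and FPKM values. No count was listed in any library for 1776 genes. The tools DESeq2, edgeR, StringTie 1.3.4d, HISAT2 2.0.4 and cutadapt 1.9 and the build GRCm38 are listed in the submitters' processing notes, with no role or order. The tool that made the counts is not given in the sources used here, nor is its strand setting or annotation release. Without the strand setting, reads of overlapping genes on opposite strands cannot be told apart. Gene positions are those of GENCODE M21 on GRCm38, matched by Ensembl ID for 35571 genes. The table's own positions equalled them for 670 genes, 1 of them a member, and are not printed.

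Groups came from the sample titles. In edgeR 4.0.16 (R 4.3.3), low counts were removed by filterByExpr, libraries were scaled by TMM, and a quasi-likelihood model with 1 mean per group was fitted to all 12 libraries. Benjamini-Hochberg adjustment ran over 22915 genes, with a threshold of 0.05. The standard error is the log2 fold change over the root of its F statistic, and 95% intervals use the same fit. Levels are deposited FPKM, mean ± SD over 3 libraries. The median log2 fold change of all genes lay between -0.02 and 0.02 in every comparison. Alternatives were other scalings, no filter, DESeq2 1.42.0, limma 3.58.1 on log2(FPKM + 1) and log2(FPKM + 0.1), the replicate number as a block, only the groups compared, and leaving out each library. Named genes were all members, Il1a, Il1b and Il18, up to 8 wider-list genes with the smallest p in ALI against Control and up to 4 in each other comparison, and the 2 genes nearest each member with a mean of at least 1 FPKM. One wider-list gene that this rule names is not reported here. The members and lists were chosen with earlier results of these data known. Promoter windows are from RefSeq (GRCm38.p6). No 2 libraries were identical.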

Additional observations from a re-analysis of the deposited data

How the results depend on the processing

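Of 54 member results (9 genes in 6 comparisons), 30 kept their direction and side of the threshold in all 20 alternatives and 24 did not. With no filter on low counts, 1 member was called in MSC against ALI and 3 in tpMSC against ALI. DESeq2 called 1 member and 2 wider genes in tpMSC against MSC and 5 members in tpMSC against Control. All genes called in tpMSC against MSC numbered 7, against 4 with RLE scaling, 0 with no filter, 0 with the replicate block, 0 with only the groups compared, 641 with DESeq2 and 13 with limma on log2(FPKM + 0.1). All genes called in MSC against ALI numbered 2347, against 1221 with only the groups compared and 3528 with DESeq2. In tpMSC against MSC the log2 fold change turned for Gsdmd (-0.0145 with limma on log2(FPKM + 1), -0.0152 with log2(FPKM + 0.1)) and for Mlkl (-0.0011 with the replicate block, -0.0673 and -0.0921 with limma). The cause of these changes was not tested.

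Leaving out each library in turn gave 1 to 3 members called in MSC against ALI, 3 to 8 in tpMSC against ALI, 0 to 3 in tpMSC against MSC and 1 to 4 in tpMSC against Control. All genes called ranged from 1084 to 2930 in MSC against ALI, 3399 to 5800 in tpMSC against ALI, 0 to 386 in tpMSC against MSC, 2465 to 4751 in MSC against Control and 1830 to 4247 in tpMSC against Control. Wider genes called ranged from 0 to 3 in tpMSC against MSC, 10 to 20 in MSC against Control and 9 to 18 in tpMSC against Control. Log2 values that turned ranged from -0.0377 to 0.36 for Pycard and -0.40 to 0.0025 for Il18 in tpMSC against Control, -0.82 to 0.0448 for Il1a in MSC against ALI, and, in tpMSC against MSC, -0.0724 to 0.11 for Gsdmd, -0.28 to 0.19 for Ripk3 and -0.48 to 0.27 for Mlkl. Ratios that turned ranged from -0.51 to 0.0357 for Nlrp3/Pycard in tpMSC against MSC, -0.0416 to 0.20 for Gsdmd/Casp1 in MSC against ALI, and for Mlkl/Ripk3 -0.0259 to 0.39 in MSC against ALI, -0.10 to 0.32 in tpMSC against ALI and -0.25 to 0.19 in tpMSC against MSC.

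No pairing of samples by replicate number was seen. Deviations from the group means correlated at -0.108 to 0.104 over 18 same-numbered pairs, and the best partner had the same number for 4 of 12 libraries. With 3 libraries a group, this check cannot exclude that same-numbered libraries were handled together. With 3 libraries a group, the exact test of a ratio cannot go below 0.1. Counting error weighs most at low counts, the lowest of any member being 212, for Nlrc4 in tpMSC 2.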
